A study of Mus musculus with 4 samples.

Results

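The response to gamma radiation of mouse embryonic fibroblasts (MEFs, cells grown out of embryos) labelled Wip1-/- was described from 1 array of unirradiated cells, labelled 0 h, and 1 array of cells harvested 4 h after 5 Gy. These are 2 of the 4 arrays of the series, which the series text says were made to examine p53 target genes. The other arrays hold Wip1+/+ MEFs, unirradiated (0 h) and 4 h after the same dose. Members were all probe sets with a single gene symbol, taken as the log2 ratio of the irradiated array over the unirradiated array. Of 18193 gene symbols, 11546 had at least 1 probe set whose mean signal over the 4 arrays reached 67.95, the median over all probe sets, and 5278 had at least 2. A floor of 46.5, the 40th percentile over the 4 arrays pooled, replaced every lower signal, so a ratio against the floor is a lower bound.

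Wip1-/- denotes cells without the phosphatase Wip1, the product of Ppm1d. The part of the gene that was removed, and the number of embryos behind each culture, are not known here. No array holds unirradiated cells at 4 h, so what radiation did and what 4 h in culture did cannot be told apart. With 1 array per group there is no p-value below, and variation from culture to culture is unknown. The error printed is the SD on the log2 scale over the probe sets of a gene. These probe sets lie on the same arrays and can share target sequence. In bulk RNA, fewer cells of a type and less RNA per cell cannot be told apart.

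Ionizing radiation breaks DNA, and the kinases Atm and Chk2 then stabilise the transcription factor p53, which switches on genes of cell cycle arrest, cell death and repair. Mdm2 and Wip1 are themselves p53 targets that close negative feedback loops: Mdm2 marks p53 for degradation, and Wip1 removes phosphates from p53, from its kinases and from Mdm2. In fibroblasts the p53 response to radiation is dominated by growth arrest, for which the CDK inhibitor p21, encoded by Cdkn1a, is the best known effector.

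The labels and the arrays were checked first. Both probe sets of Ppm1d gave signals of 504 and 219 on the unirradiated array labelled Wip1-/- and 482 and 561 on the irradiated one, against 375 and 317 and then 364 and 463 on the Wip1+/+ arrays. On the unirradiated array labelled Wip1-/- the second probe set was thus the lowest of the 4 arrays and the first the highest, while on the irradiated one both probe sets lay above both Wip1+/+ arrays. It is not known whether these probes lie in the deleted part, so they do not check the label. All 16 fibroblast markers were above the floor on both arrays labelled Wip1-/-, among them Vim at 83654 and 55018 and Col1a1 at 53682 and 34112. The trimmed mean was 500 on each array, and medians ran from 68.4 to 85.8, the highest on the unirradiated array labelled Wip1-/-. The 18 hybridization spike-in probe sets set this array apart: their log2 ratios had an SD of 0.44 to 0.47 in each of the 3 pairs that include it, with 5 or 6 controls at least 1.5-fold apart, and of 0.07 to 0.10 in the 3 pairs without it, with 0 controls that far apart. Every ratio of irradiated over unirradiated cells labelled Wip1-/- rests on that array. Values are therefore also given with it left out, by setting irradiated cells labelled Wip1-/- over the unirradiated Wip1+/+ array, a ratio that mixes radiation with genotype.

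By the brightest probe set of each gene, 658 genes (5.70% of 11546) exceeded 2-fold upward and 534 (4.62%) downward on the irradiated array labelled Wip1-/-. In Wip1+/+ cells 355 genes (3.07%) passed the same rule, 182 of them higher and 173 lower. Higher genes made up 55.2% of the 2-fold differences in cells labelled Wip1-/-, and 44.2% once each array was scaled by the median of its brighter probe sets, so the balance between the directions depends on the scaling. It moved further with the filter on low signals, to 43.5% without one, 77.1% with a filter at the 67th percentile and 80.4% with a mean of at least 500. Far more genes passed 2-fold than in Wip1+/+ cells, but the probe sets of a gene seldom agreed in either genotype. Where the brightest probe set was at least 2-fold higher and a second one was measured (254 genes), the second was at least 1.5-fold higher in 54 genes and at least 1.5-fold lower in 46, with a median log2 ratio of 0.00. For the 97 genes whose brightest probe set was 2-fold lower, the second was at least 1.5-fold lower in 19 and at least 1.5-fold higher in 10, with a median of -0.16. In Wip1+/+ cells 21 such genes were 2-fold higher. Their second probe set was at least 1.5-fold higher in 2 and at least 1.5-fold lower in 5. Of the 23 that were 2-fold lower there, the second was at least 1.5-fold lower in 2 and higher in 2.

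Genes were therefore called agreeing only when every probe set that passed the signal filter, at least 2 of them, differed at least 1.5-fold in one direction. In cells labelled Wip1-/- 101 genes agreed higher (1.91% of 5278) and 82 agreed lower (1.55%), against 17 (0.322%) and 20 (0.379%) in Wip1+/+ cells. In cells labelled Wip1-/- 516 genes had probe sets at least 1.5-fold apart in opposite directions, against 93 in Wip1+/+ cells. Among the 3079 genes with exactly 2 probe sets, 170 agreed and 162 were opposed in cells labelled Wip1-/-, while 36 agreed and 23 were opposed in Wip1+/+ cells. Probe sets of a gene spread around their mean log2 ratio with an SD of 0.62 for cells labelled Wip1-/- and 0.37 for Wip1+/+ cells. Across genes, which are not independent replicates, the ratios of the brightest and the second brightest probe set had a correlation of 0.04 and 0.13.

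Among bright genes the probe sets lay apart as well. Of the 1452 genes whose passing probe sets all had a mean of 500 or more, 25 agreed higher, 12 agreed lower and 82 were opposed in cells labelled Wip1-/-, with an SD between probe sets of 0.54. In Wip1+/+ cells the same genes gave 3, 0 and 0, with an SD of 0.17. Among the agreeing genes in cells labelled Wip1-/-, the median signal of the brightest probe set was 559 for those higher and 285 for those lower, against 1005 for all 5278 genes. A probe set lay at the floor on the unirradiated array in 27 of the 101 genes that agreed higher, and on the irradiated array in 18 of the 82 that agreed lower.

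**Figure D1:**
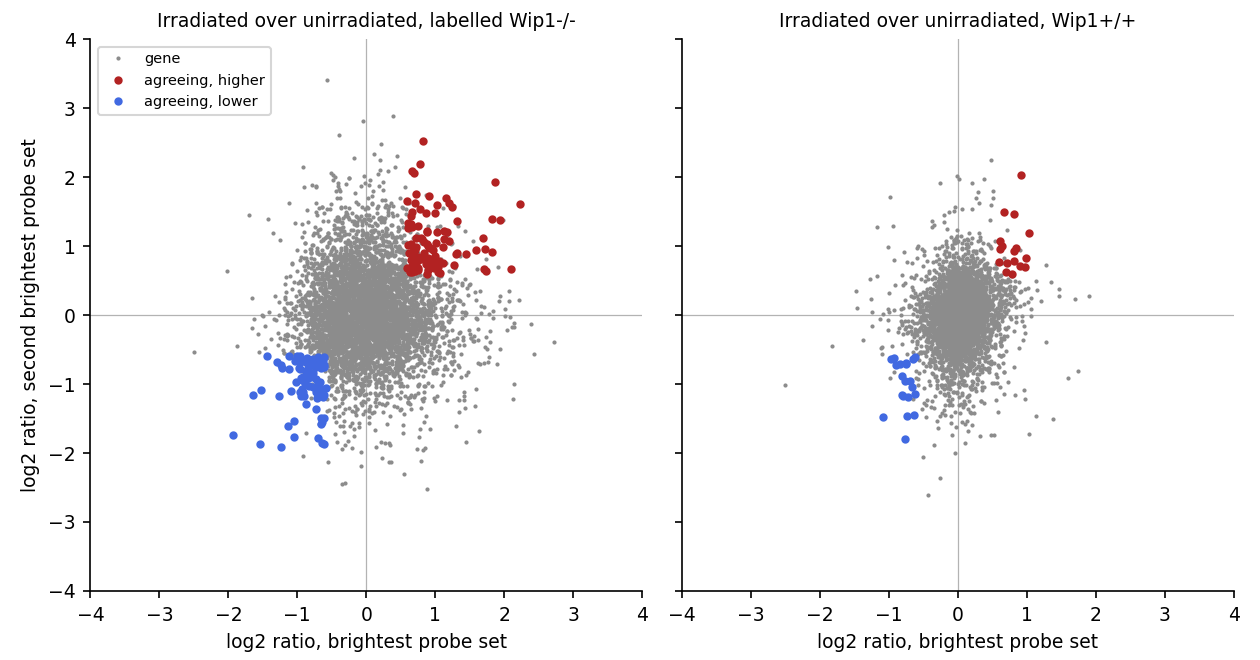
Log2 ratio of irradiated over unirradiated cells for the brightest (x axis) and second brightest (y axis) probe set of the 5278 genes with at least 2 passing probe sets, 1 point per gene, for cells labelled Wip1-/- (left) and Wip1+/+ cells (right). Coloured points are the genes whose passing probe sets all differ at least 1.5-fold in one direction (101 red and 82 blue on the left, 17 and 20 on the right); the cloud on the left is wider, with an SD between probe sets of 0.62 against 0.37, and shows almost no slope.

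The list of p53 targets and regulators leaned higher in cells labelled Wip1-/-. Of 76 genes on the p53 lists, 67 were measured: the ratio exceeded 1 in 48 and was smaller in 19, and the median on the log2 scale was 0.24 (quartiles -0.03 and 0.51), beside 0.00 for all genes. The brightest probe set exceeded 2-fold upward in 11 of the 67 and downward in 0, beside 5.70% and 4.62% of all genes. In Wip1+/+ cells the median was 0.21, with 52 above 1 and 15 below, and 41 of the 67 had a ratio above 1 in both genotypes. Most of the 30 p53 genes with at least 2 probe sets did not agree. Btg2, Trp53inp1 and Polk agreed higher and 0 agreed lower, beside 1.91% and 1.55% of all such genes, and Aen, Cdc25c and Pank1 were opposed. In Wip1+/+ cells 3 of the 30 agreed higher and 1 agreed lower, beside 0.322% and 0.379% of all such genes. With the unirradiated array labelled Wip1-/- left out, the median was 0.15 over the unirradiated Wip1+/+ array and 0.05 over the mean of both Wip1+/+ arrays.

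Promoter sequences of the p53 genes discussed next are shown with the letters that a search found in the 250 bases before the transcription start, from RefSeq on GRCm38.p6, in capitals. Polk and Btg2 are agreeing genes whose window held a searched motif; Cdkn1a, Mdm2 and Ppm1d are added as the arrest effector, the p53 inhibitor and the gene named on the labels.
Polk: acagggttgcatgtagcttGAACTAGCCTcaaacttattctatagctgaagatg
Btg2: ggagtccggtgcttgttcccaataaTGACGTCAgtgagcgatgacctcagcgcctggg
Cdkn1a: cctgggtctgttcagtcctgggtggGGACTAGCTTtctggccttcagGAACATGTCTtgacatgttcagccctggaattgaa
Mdm2: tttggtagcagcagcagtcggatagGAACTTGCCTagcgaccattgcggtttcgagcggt
Ppm1d: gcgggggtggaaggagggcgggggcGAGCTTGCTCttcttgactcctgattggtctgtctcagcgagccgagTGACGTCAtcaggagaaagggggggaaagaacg
The stretches lie at chr13:96519384-96519437 on the minus strand for Polk, chr1:134079289-134079346 minus for Btg2, chr17:29090881-29090962 plus for Cdkn1a, chr10:117710910-117710969 minus for Mdm2 and chr11:85311097-85311201 plus for Ppm1d. The capitals of Polk, Cdkn1a and Mdm2, and the first run in Ppm1d, match the p53 half-site consensus searched on both strands, and TGACGTCA in Btg2 and Ppm1d is the cyclic AMP response element, also searched on both strands; the matches shown do not overlap. For Polk and Cdkn1a the match lies at 1 of the 2 starts listed. A half-site was found in 14 of the 61 p53 genes matched in the table (23.0%), against 8.20% of all genes, in 5 of 77 matched genes that agreed higher (6.49%) and in 6 of 69 that agreed lower (8.70%). A cyclic AMP response element stood in 1.77% of all genes. These are matches of letters, not measured binding. Trp53inp1 was not matched.

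Among the arrest genes, Btg2, an antiproliferative p53 target that recruits the machinery of mRNA deadenylation, was higher after irradiation in both genotypes. Its probe sets gave 698 and 691 on the unirradiated array labelled Wip1-/-, 1203 and 1316 on the irradiated one, 974 and 915 on the unirradiated Wip1+/+ array and 1592 and 1715 on the irradiated Wip1+/+ array. Both irradiated arrays were above both unirradiated arrays with either probe set. The log2 ratio was 0.86 ± 0.10 (SD, n = 2 probe sets) in cells labelled Wip1-/- and 0.81 ± 0.14 in Wip1+/+ cells. The difference of 0.05 ± 0.04 was not tested, with 1 array per group. Its level was lower in cells labelled Wip1-/- at both conditions, and over the unirradiated Wip1+/+ array the irradiated signal had a log2 ratio of 0.41. No gene other than Btg2 agreed higher in both genotypes.

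Trp53inp1, a stress-induced p53 target that promotes arrest and cell death, read 1858 and 209 on the unirradiated array labelled Wip1-/- and 4070 and 488 on the irradiated one, against 2573 and 392, then 4471 and 476, on the Wip1+/+ arrays. With both probe sets the unirradiated array labelled Wip1-/- was the lowest of the 4. The log2 ratio was 1.18 ± 0.07 (n = 2 probe sets), against 0.54 ± 0.36 in Wip1+/+ cells, and 0.49 over the unirradiated Wip1+/+ array.

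The other arrest genes showed their response with some probe sets and not with others. Ccng1, cyclin G1, a p53 target that restrains p53 with a protein phosphatase, read 13635, 7811 and 12785 on the unirradiated array labelled Wip1-/- and 31247, 16388 and 14518 on the irradiated one. Its first 2 probe sets thus gave log2 ratios of 1.20 and 1.07 and the third 0.18, while in Wip1+/+ cells all 3 lay between 0.08 and 0.21. Cdkn1a gave 8920 and then 15476 with its brighter probe set (log2 ratio 0.79) and 3878 and then 4461 with the other (0.20), so that it did not agree; in Wip1+/+ cells they read 12735, then 16318, and 2350, then 2313, with ratios of 0.36 and -0.02. Between the irradiated arrays, Cdkn1a was close with the brighter probe set (15476 in cells labelled Wip1-/- and 16318 in Wip1+/+ cells), whereas with the other it was higher in cells labelled Wip1-/- (4461 against 2313). Fbxw7, the substrate receptor of a ubiquitin ligase that degrades cyclin E and Myc, had ratios of 1.02 and -0.02.

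For several p53 targets 1 probe set was measured, which leaves no agreement to check. Gadd45a, a small acidic protein of arrest and repair, went from 263 to 595 in cells labelled Wip1-/- and from 222 to 542 in Wip1+/+ cells, log2 ratios of 1.18 and 1.29, with both irradiated arrays above both unirradiated ones. Rprm, which restrains entry into mitosis, went from 125 to 311 (1.31), but both values lay below the 367 and 477 of the Wip1+/+ arrays, and over the unirradiated one the ratio turned to -0.24. Plk2, a polo-like kinase, was lower after irradiation in cells labelled Wip1-/- (8708 and then 5287, log2 ratio -0.72), where the 3 arrays other than the unirradiated Wip1-/- one lay between 5137 and 5287. Over the 14 arrest genes the median log2 ratio was 0.45 in cells labelled Wip1-/- (9 above 1, 5 below) and 0.30 in Wip1+/+ cells. With the unirradiated array labelled Wip1-/- left out, it was 0.21 over the unirradiated Wip1+/+ array and 0.05 over the mean of both Wip1+/+ arrays.

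Of the 14 apoptosis genes measured, 11 were above and 3 below a ratio of 1 in cells labelled Wip1-/-. Their median log2 ratio was 0.31, beside 0.30 in Wip1+/+ cells. Of the 5 with several probe sets 0 agreed, beside 1.91% higher and 1.55% lower of all such genes. Bbc3, which encodes the BH3-only killer Puma, went from 228 to 522 in cells labelled Wip1-/- and from 348 to 584 in Wip1+/+ cells. Pidd1, the scaffold of the caspase-2 activating complex, went from 85.9 to 248 and from 90.3 to 352, with both irradiated arrays above both unirradiated ones. Its log2 ratio was 1.53 in cells labelled Wip1-/- and 1.96 in Wip1+/+ cells, each from 1 probe set.

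Apaf1 and Fas are apoptosis genes whose ratios were unlike in the genotypes. Apaf1, the core of the apoptosome, read 313 and 1642 on the unirradiated array labelled Wip1-/- and 550 and 1460 on the irradiated one, log2 ratios of 0.81 and -0.17, whereas in Wip1+/+ cells both probe sets were higher (302 and 1108, then 595 and 1988; 0.98 and 0.84). Fas, a death receptor, was measured by 1 probe set that went from 304 to 231 in cells labelled Wip1-/- and from 316 to 595 in Wip1+/+ cells. The unirradiated arrays thus read alike for Fas, and the irradiated arrays lay on either side of them. With 1 array per group these differences were not tested. Aen, a p53-induced nuclease, had 4 probe sets with log2 ratios of 1.45, 0.00, -0.17 and -0.70 in cells labelled Wip1-/-, and Bid, which carries the death receptor signal to mitochondria, had 0.54, -0.58 and -1.30.

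Among the p53 targets of repair and metabolism, Polk, a DNA polymerase that copies past damaged bases, was the one gene that agreed, of 14 with several probe sets (beside 1.91% higher and 1.55% lower of all such genes). It read 301 and 579 on the unirradiated array labelled Wip1-/- and 597 and 1256 on the irradiated one, against 457 and 1053, then 729 and 1388, in Wip1+/+ cells. The irradiated array lay above the unirradiated one in each genotype, with log2 ratios of 1.05 ± 0.09 (n = 2 probe sets) and 0.54 ± 0.19; over the unirradiated Wip1+/+ array the ratio was 0.32. Over the 31 genes measured the median was 0.12 (21 above 1, 10 below) in cells labelled Wip1-/- and 0.18 in Wip1+/+ cells. Abca1, the cholesterol exporter, had its brightest probe set 2.39-fold higher (359, then 857), with the other two at 1.24 and 1.60-fold. Dram1, which links p53 to autophagy, went from 233 to 472 with 1 probe set, where the Wip1+/+ arrays read 516 and 537, so that over the unirradiated one its ratio turned to -0.13. Rrm2b, the p53-inducible subunit of ribonucleotide reductase, had log2 ratios of 0.81 and 0.23, and Sesn1 and Sesn2, stress proteins that restrain mTORC1, had means of 0.10 ± 0.39 (n = 3) and 0.11 ± 0.14 (n = 2).

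Genes that restrain p53 had a median log2 ratio of 0.45 over 9 members (8 above 1, 1 below) in cells labelled Wip1-/-, against 0.15 in Wip1+/+ cells. With the unirradiated array labelled Wip1-/- left out, that median was 0.13 over the unirradiated Wip1+/+ array and 0.06 over the mean of both. Mdm2, the ubiquitin ligase of p53, read 3006 and 5777 on the unirradiated array labelled Wip1-/- and 5179 and 6285 on the irradiated one. Its ratios were 0.79 and 0.12, so that 1 probe set showed the response and the other did not; in Wip1+/+ cells both did (3088 and 4050, then 4771 and 6533; 0.63 and 0.69), and Mdm2 agreed there. Between the genotypes each probe set of Mdm2 differed by less than 1.5-fold, on the unirradiated arrays (3006 against 3088, and 5777 against 4050) as on the irradiated ones. The widest of these gaps was that of the second probe set on the unirradiated arrays. Mdm4, the Mdm2 relative that masks the activation domain of p53, had 4 probe sets with ratios from -0.14 to 0.89. Wwp1, a ubiquitin ligase, had 1.61 and 1.12 with 2 probe sets and -0.20 with the third, and its Wip1+/+ ratios lay between 0.01 and 0.29; over the unirradiated Wip1+/+ array its mean was 0.01. Ppm1d itself had ratios of 1.36 and -0.06 on the arrays labelled Wip1-/-, and of 0.55 and -0.04 on the Wip1+/+ arrays.

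**Figure D2:**
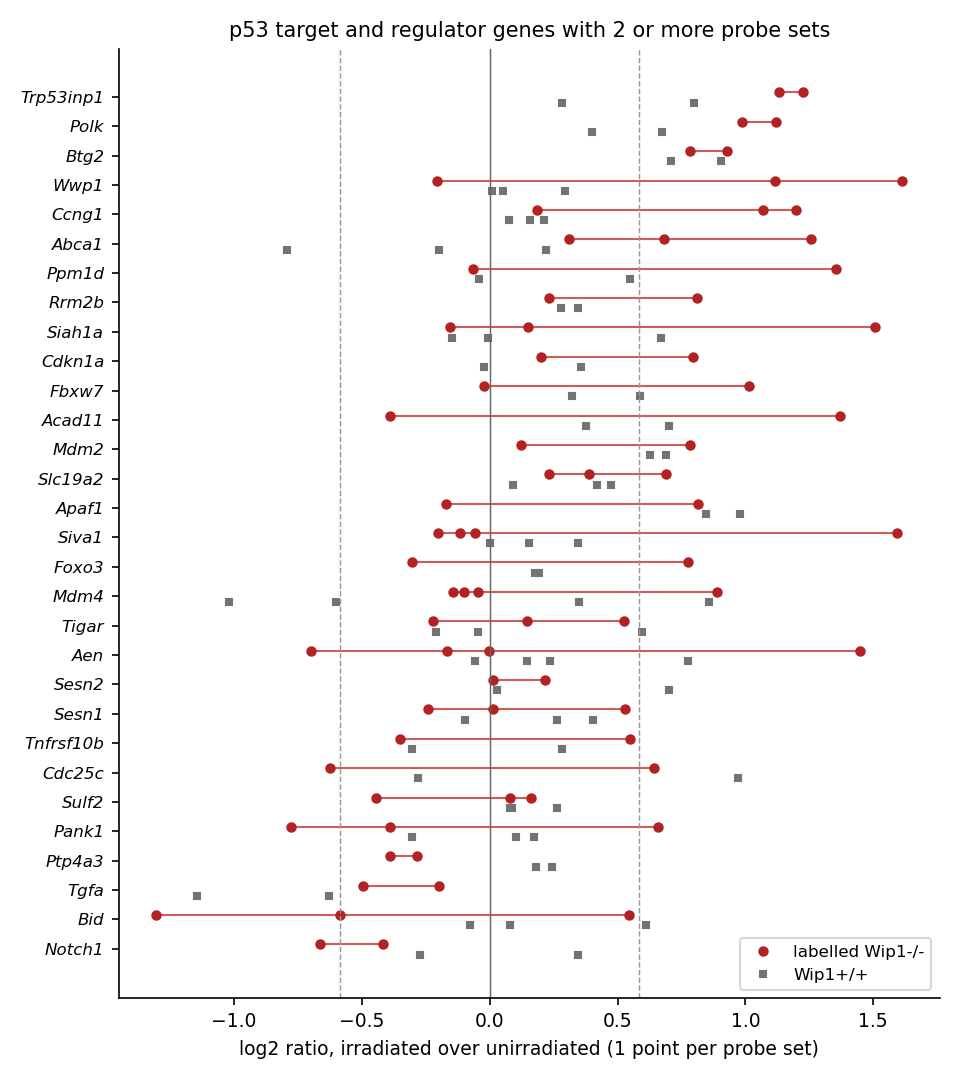
Log2 ratio of irradiated over unirradiated cells for every passing probe set of the 30 p53 genes with at least 2 of them, in cells labelled Wip1-/- (red circles, joined by a line per gene) and Wip1+/+ cells (grey squares); dashed lines mark 1.5-fold. Genes are ordered by the mean ratio in cells labelled Wip1-/-: Trp53inp1, Polk and Btg2 have short lines that lie wholly past 1.5-fold. In 17 of the 30 the red probe sets do not all lie on one side of 0, as in 3204 of all 5278 genes.

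The immediate early genes, transcription factors induced within minutes by growth factors and stress, leaned lower in cells labelled Wip1-/-, with a median log2 ratio of -0.20 over 28 genes (10 above 1, 18 below), against 0.01 in Wip1+/+ cells and 0.03 over the unirradiated Wip1+/+ array. Fosl1, which encodes the AP-1 subunit Fra-1, agreed higher: it read 448 and 165 on the unirradiated array labelled Wip1-/-, 1034 and 347 on the irradiated one, and 908 and 260, then 1416 and 341, in Wip1+/+ cells. The ratio was 1.14 ± 0.09 (n = 2 probe sets) against 0.51 ± 0.18, with the unirradiated array labelled Wip1-/- the lowest of the 4. Srf, the serum response factor that drives immediate early and actin genes, agreed lower: 1698 and 936 on the unirradiated array labelled Wip1-/-, 948 and 497 on the irradiated one. The Wip1+/+ arrays read 970 and 573, then 1018 and 552, so here the unirradiated array labelled Wip1-/- stood above the other 3, which lay between 948 and 1018 and between 497 and 573. The ratio was -0.88 ± 0.05, and -0.12 over the unirradiated Wip1+/+ array. Fos went from 25.6, under the floor, to 291 with 1 probe set, at least 6.26-fold higher, where the Wip1+/+ arrays read 206 and 413. By the brightest probe set 2 of the 28 genes were 2-fold higher and 4 lower, beside 5.70% and 4.62% of all genes. The 4 were Nr4a1 (1903, then 825), Nr4a2, Nr4a3 and Egr4, the last 2 under the floor on the irradiated array. Nr4a2 had log2 ratios of -1.42, -0.70 and 1.39.

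The Srf promoter is shown because its window held a pair of serum response elements, the sites through which Srf activates genes.
Srf: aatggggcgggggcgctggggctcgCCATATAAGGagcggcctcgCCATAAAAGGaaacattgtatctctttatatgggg
The stretch lies at chr17:46556190-46556269 on the minus strand, and the capitals mark the matches, 72 and 52 bases from the start. A serum response element was found in 1.62% of all genes, in 2.90% of the 69 matched genes that agreed lower and in 0 of the 77 that agreed higher. The promoters of Fosl1 and Nfkbiz were not matched.

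Of 11 NF-kB targets with several probe sets, Nfkbiz agreed higher and 0 agreed lower, beside 1.91% and 1.55% of all such genes. Nfkbie, an inhibitor of NF-kB, was opposed, with ratios of -0.84 and 1.01. Nfkbiz encodes IkB-zeta, a nuclear cofactor that NF-kB induces and that is needed for secondary response genes. Its 3 probe sets read 612, 159 and 157 on the unirradiated array labelled Wip1-/- and 1251, 367 and 341 on the irradiated one, against 680, 234 and 128, then 1139, 311 and 327, in Wip1+/+ cells. Both irradiated arrays lay above both unirradiated arrays with all 3 probe sets. The log2 ratio was 1.12 ± 0.09 (n = 3 probe sets) in cells labelled Wip1-/-, 0.84 ± 0.48 in Wip1+/+ cells and 0.98 ± 0.40 over the unirradiated Wip1+/+ array. The 25 measured NF-kB targets had a median of 0.15, beside 0.00 in Wip1+/+ cells.

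The widest agreeing differences belonged to genes of many kinds. Hif3a, a hypoxia-inducible factor subunit, was among those that were higher: its probe sets read 31.9 and 27.3 on the unirradiated array labelled Wip1-/-, both under the floor, and 218 and 143 on the irradiated one, at least 4.69 and 3.07-fold higher. On the Wip1+/+ arrays Hif3a read 254 and 155, then 190 and 118, so that 3 arrays carried the signal and 1 did not. Abtb2, an ankyrin repeat and BTB domain protein, read 182 and 34.1 and then 662 and 177, with the 34.1 under the floor. The log2 ratio of the first probe set was 1.87 and that of the second at least 1.93, with -0.07 ± 0.01 in Wip1+/+ cells. Its irradiated signal was also above the Wip1+/+ arrays, at 0.50 over the unirradiated one.

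Snai2, the repressor Slug of epithelial genes and a p53 target that protects from Puma, was bright: 602 and 1358 on the unirradiated array labelled Wip1-/- and 1568 and 5217 on the irradiated one, a log2 ratio of 1.66 ± 0.40. The Wip1+/+ arrays read 1070 and 4179, then 1303 and 5391, with a ratio of 0.33 ± 0.06; over the unirradiated Wip1+/+ array the irradiated signal gave 0.44. Pon2, an intracellular paraoxonase that limits oxidative damage, read 682 and 395, then 1695 and 1020 (1.34 ± 0.04), beside 1301 and 1035, then 1756 and 1142. Grsf1, an RNA-binding protein of mitochondrial RNA granules, was higher with all 3 probe sets, by 2.36, 1.87 and 2.49-fold, while its Wip1+/+ ratios lay between 0.01 and 0.14. Its unirradiated signals of 859, 1300 and 1968 in cells labelled Wip1-/- were the lowest of the 4 arrays.

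Others among the 15 widest were Mrps25 of the mitochondrial ribosome (1.68 ± 1.20), Oxsm of mitochondrial fatty acid synthesis (1.61 ± 0.30), Tmeff1 (1.43 ± 0.38), Pigv of GPI anchor synthesis (1.41 ± 0.31), Dhx38, a helicase of pre-mRNA splicing (1.40 ± 0.23), the homeobox gene Pknox2 (1.39 ± 1.01), Wdr70 (1.38 ± 0.98), Cyp4f16, a cytochrome P450 (1.36 ± 0.64), and Tet2, a dioxygenase that oxidises methylcytosine (1.34 ± 0.55), each over 2 probe sets. The Wip1+/+ ratios of these 9 genes lay between -0.53 and 0.25. Iqsec1 (at least 2.09 with 1 probe set and 0.67 with the other) and Stxbp6 (1.41 ± 0.40) completed the 15, and their Wip1+/+ ratios were positive as well, at 1.04 ± 1.05 and 1.06 ± 1.22, with probe sets that lay far apart. Oxsm, Pigv, Stxbp6, Tet2 and Tmeff1 each had a probe set under the floor on the unirradiated array labelled Wip1-/-, so their ratios are lower bounds. Mrps25 and Pknox2 each had a probe set just above the floor there, at 48.0 and 49.1. These gave log2 ratios of 2.53 and 2.10, against 0.82 and 0.67 with the other passing probe set. With the unirradiated array labelled Wip1-/- left out, the ratio over the unirradiated Wip1+/+ array changed sign for Hif3a (-0.17), Pigv (-0.23), Dhx38 (-0.37) and Cyp4f16 (-0.17), and was 0.66 for Tet2.

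Among genes that agreed lower, the widest ratios were those of Pgap6, an enzyme that acts on GPI anchors (-1.83 ± 0.13), Vars2, the mitochondrial valyl-tRNA synthetase (log2 ratio -1.54 with 1 probe set, and at least 3.66-fold lower with the other), and Prr11, a gene of proliferating cells (-1.58 ± 0.48). These rest on dim signals, with a probe set under the floor on the irradiated array for each: Pgap6 read 155 and 177 on the unirradiated array labelled Wip1-/- and 4.60 and 44.7, under the floor, on the irradiated one, at least 3.33 and 3.80-fold lower. The Wip1+/+ arrays gave Pgap6 values from 52.0 to 81.9. Rasal2, which switches off Ras, was brighter, at 1052 and 1845, then 364 and 892, a ratio of -1.29 ± 0.34, with -0.64 ± 0.61 in Wip1+/+ cells. Iqgap3, a scaffold of proliferating cells, read 629 and 167, then 286 and 54.9 (-1.37 ± 0.33), beside 435 and 104, then 353 and 51.9.

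Rgs2, which shortens signalling from Gq-coupled receptors, was lower with all 3 probe sets that passed. They read 273, 349 and 107 on the unirradiated array labelled Wip1-/- and 123, 112 and 13.4 on the irradiated one, the last under the floor, against 218, 232 and 89.7, then 108, 155 and 108, in Wip1+/+ cells. With the 2 brighter probe sets both irradiated arrays lay below both unirradiated arrays. The ratio was -1.33 ± 0.27 (n = 3 probe sets), against -0.44 ± 0.65 in Wip1+/+ cells and -0.94 ± 0.11 over the unirradiated Wip1+/+ array.

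Sox9, the transcription factor of cartilage and of many progenitor cells, agreed lower in both genotypes. Its probe sets read 298 and 302 on the unirradiated array labelled Wip1-/- and 106 and 197 on the irradiated one, and 252 and 328, then 72.3 and 192, in Wip1+/+ cells. The unirradiated arrays lay close together, as did the irradiated ones, and they did not overlap. The log2 ratio was -1.06 ± 0.62 (n = 2 probe sets) in cells labelled Wip1-/- and -1.29 ± 0.73 in Wip1+/+ cells, with a difference of 0.23 ± 0.11. Id2, an inhibitor of basic helix-loop-helix factors, read 670 and 1696, then 337 and 912, with -0.94 ± 0.07 in cells labelled Wip1-/-. In Wip1+/+ cells Id2 read 924 and 2092, then 360 and 1455, with -0.94 ± 0.59; its second probe set, at -0.52, fell short of 1.5-fold, so that it did not agree there. Both irradiated arrays were below both unirradiated arrays for Id2, too. Phf12, a PHD finger protein of the Sin3 corepressor complex, agreed lower in both genotypes as well, with -0.91 ± 0.39 and -1.05 ± 0.57. With its dimmer probe set Phf12 was under the floor on both irradiated arrays (44.7 and 46.4), so both ratios are bounds. Its irradiated level with the brighter probe set was 244 in cells labelled Wip1-/- and 141 in Wip1+/+ cells, after 378 and 220.

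**Figure D3:**
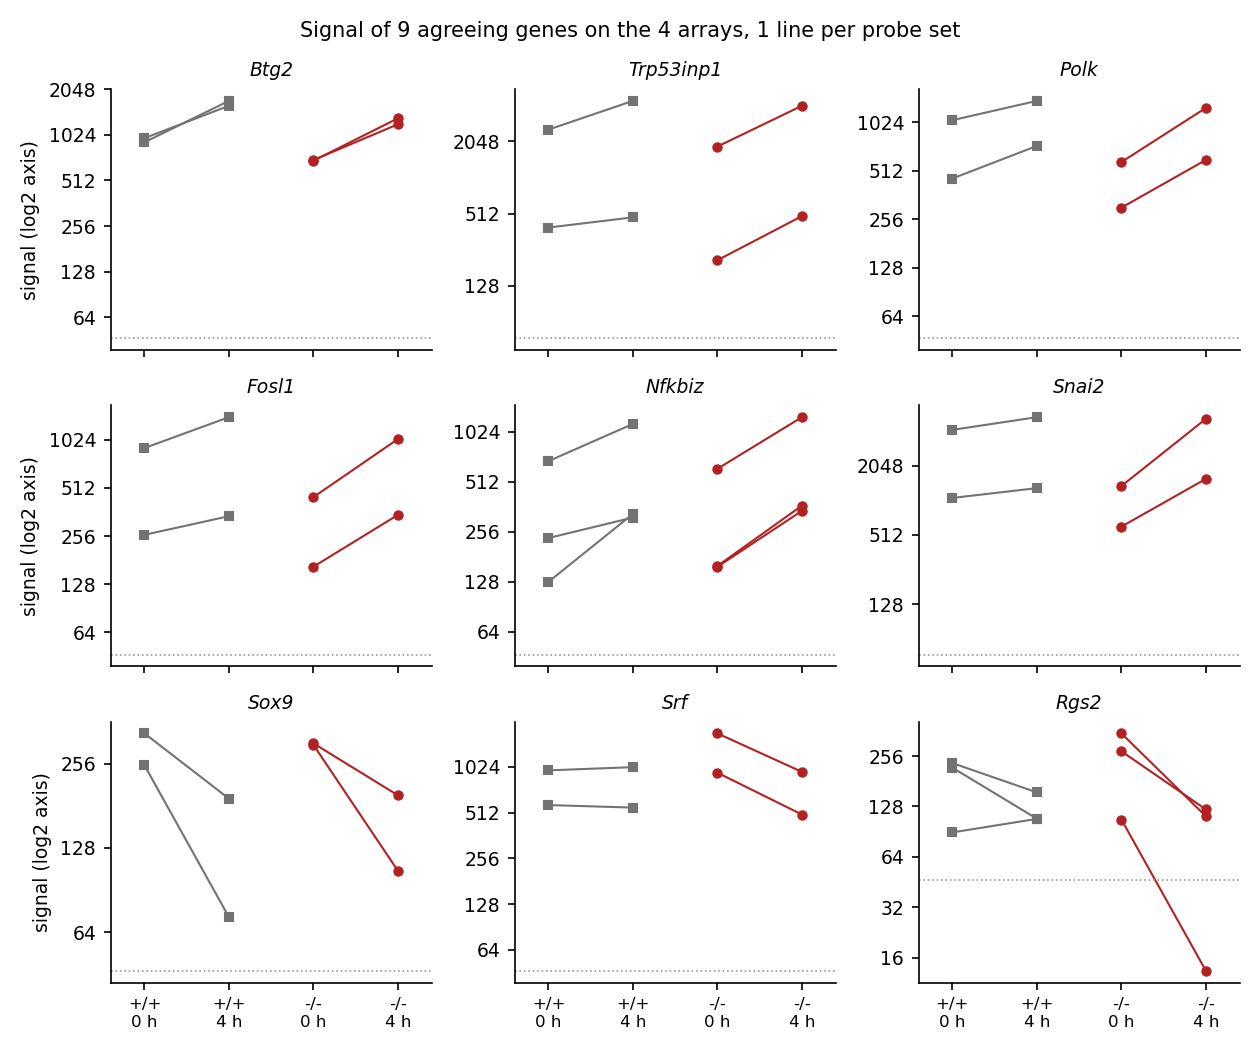
Signal on a log2 axis on the 4 arrays for every passing probe set of 9 agreeing genes, 1 line per probe set, with Wip1+/+ arrays in grey and arrays labelled Wip1-/- in red; the dotted line is the floor of 46.5. Btg2, Nfkbiz and Sox9 move alike in both genotypes, while for Snai2 and Srf the unirradiated array labelled Wip1-/- differs from the other 3.

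Many agreeing differences lay where the unirradiated array labelled Wip1-/- alone stood apart. Each array labelled Wip1-/- was set against the mean log2 signal of both Wip1+/+ arrays, with 1.5-fold as the limit. Of the 101 genes that agreed higher, the unirradiated array alone lay past the limit for 78 (77.2%), the irradiated array alone for 5 (Acot6, Aspn, Cd1d1, Zfp182 and Zfp975), both for 2 (Itga8 and Tet2) and neither for 16. Of the 82 that agreed lower these numbers were 50 (61.0%), 10, 2 (Irf5 and Rgs2) and 20. Among all 5278 genes the unirradiated array alone was apart in 14.0% and the irradiated array alone in 2.52%; the agreeing genes were called with the same unirradiated array, so these shares are a description. The mean of both Wip1+/+ arrays lies midway in a response that both genotypes share, so that Btg2, Sox9 and Phf12 fell among the 78 and 50 too. A pair of other readings was therefore added after these values were seen. Set against the Wip1+/+ array of the same condition, the unirradiated array alone was apart for 71 of the genes that agreed higher (70.3%) and 38 of those that agreed lower (46.3%), beside 14.5% of all 5278. It lay past the limit on the same side of each Wip1+/+ array for 65 (64.4%) and 35 (42.7%), beside 11.9%. For genes that agreed higher, the median distance from the Wip1+/+ mean was -0.85 on the unirradiated array and 0.13 on the irradiated array, and for genes that agreed lower it was 0.67 and -0.28. The spike-in SD of 0.44 to 0.47 moves with this pattern, and its part in the result was not tested.

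**Figure D4:**
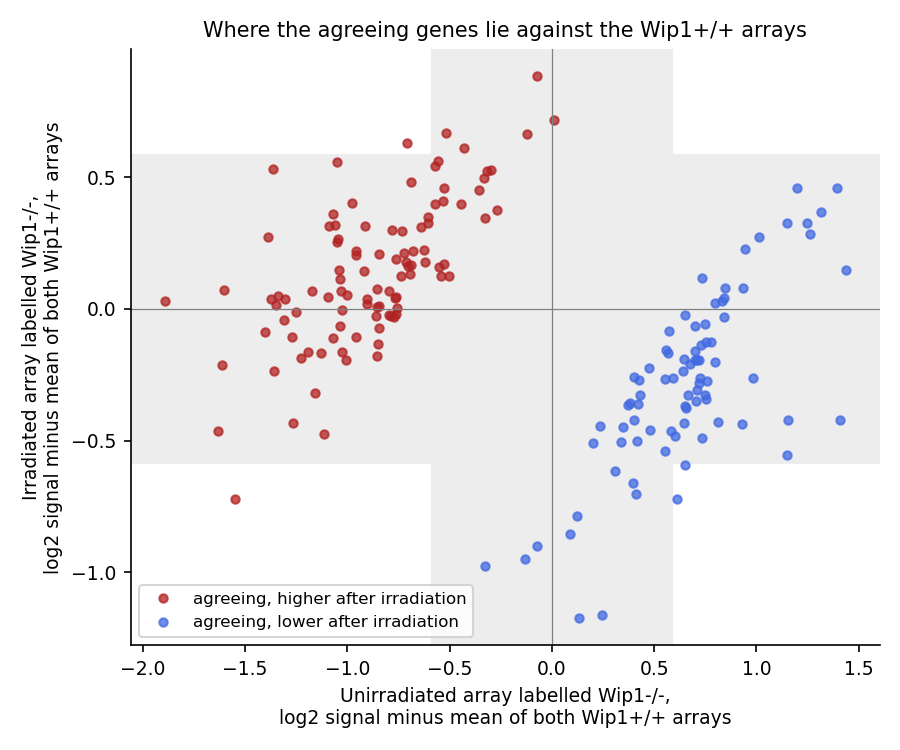
Mean log2 signal of each agreeing gene on the unirradiated (x axis) and irradiated (y axis) array labelled Wip1-/-, each minus the mean of both Wip1+/+ arrays; grey bands mark distances under 1.5-fold on either axis, red points agreed higher and blue points agreed lower. Most points spread along the x axis within the horizontal band (78 red and 50 blue are apart on the unirradiated array alone), and 5 red and 10 blue are apart on the irradiated array alone.

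A smaller set of genes kept the difference without that array. The ratio over the unirradiated Wip1+/+ array shares the irradiated array labelled Wip1-/- with the ratio that chose these genes, so some likeness is built in, and the counts are a description. Of the 101 genes that agreed higher, 6 had every probe set at least 1.5-fold higher also over the unirradiated Wip1+/+ array (Aspn, Cd1d1, Nfkbiz, Stxbp6, Zfp182 and Zfp975), where 66 of all 5278 genes did (1.25%); 74 had a mean ratio of the same sign and 27 of the opposite sign. Of the 82 that agreed lower, 10 had every probe set at least 1.5-fold lower (Brpf3, Cep85, Cfap20dc, Id2, Iqgap3, Mme, Peli2, Rgs2, Sox9 and Tafa5), where 80 of all genes did (1.52%); 71 had the same sign and 11 the opposite. Aspn, a small proteoglycan of the extracellular matrix, read 1114 and 768, then 1893 and 1348, beside 1247 and 695, then 1367 and 870: here the irradiated array labelled Wip1-/- stood above the other 3. Its ratio was 0.79 ± 0.03 in cells labelled Wip1-/-, 0.23 ± 0.13 in Wip1+/+ cells and 0.78 ± 0.25 over the unirradiated Wip1+/+ array.

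Cd1d1, which presents lipid antigens, followed the same order, with 148 and 255, then 234 and 431, against 155 and 242, then 159 and 234 (0.71 ± 0.07 against 0.00 ± 0.06). Mme, the cell surface peptidase neprilysin, was lower on the irradiated array labelled Wip1-/- than on the other 3, at 46.0 and 91.6, the first under the floor, where the others read from 103 to 158 and from 152 to 201. Brpf3, a subunit of a histone acetyltransferase complex, read 263 and 169, then 158 and 88.9, and held 256 and 184, then 275 and 186, in Wip1+/+ cells. Its ratio was -0.83 ± 0.14 in cells labelled Wip1-/- and 0.06 ± 0.06 in Wip1+/+ cells. Tafa5, a secreted peptide, had -0.82 ± 0.21 and -0.52 ± 0.18. With 1 probe set Tafa5 read 25.6, under the floor, on the irradiated array labelled Wip1-/-, so the first ratio is a bound.

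Most agreeing genes moved little in Wip1+/+ cells. Of the 101 that agreed higher in cells labelled Wip1-/-, 60 had a Wip1+/+ ratio above 1 (59.4%, beside 47.7% of all 5278 genes), with a median of 0.06 on the log2 scale, and 8 had a mean at least 1.5-fold higher there (7.92%, beside 1.88% of all). Of the 82 that agreed lower, 48 had a Wip1+/+ ratio below 1 (58.5%, beside 52.3%), with a median of -0.05, and 9 had a mean at least 1.5-fold lower (11.0%, beside 2.37%). Btg2 agreed higher, and Sox9 and Phf12 lower, in both genotypes. Acaa1a, a peroxisomal thiolase of fatty acid oxidation, agreed in opposite directions: it read 81.1 and 423, then 131 and 666, in cells labelled Wip1-/- and 223 and 768, then 147 and 498, in Wip1+/+ cells, with 0.67 ± 0.03 against -0.61 ± 0.01. Its probe sets are both of the kind that can cross-hybridize. Taking the difference between the responses of the genotypes, 116 genes had every probe set at least 1.5-fold more positive in cells labelled Wip1-/- and 103 at least 1.5-fold more negative. Hif3a was among the most positive and Vars2 among the most negative, but both rest on signals under the floor, so their exact differences and ranks are not established; no difference was tested.

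Genes of the cell division cycle showed no shared direction in cells labelled Wip1-/-. G2/M genes, which carry cells through mitosis, had a median log2 ratio of -0.01 over 36 genes (18 above 1, 18 below), where Wip1+/+ cells had -0.24 (9 above, 27 below). For G1/S and replication genes the medians were -0.10 and -0.11 over 44 genes. Among all genes with several probe sets, 1.91% agreed higher and 1.55% lower in cells labelled Wip1-/-. Of the 17 and 30 such genes of these lists, Slbp was the one that agreed. It encodes the binding protein of histone mRNA stem-loops and read 123 and 3721, then 67.5 and 2082, beside 65.7 and 2242, then 44.0 and 2310; its ratio was -0.85 ± 0.02, and -0.03 over the unirradiated Wip1+/+ array. The DNA repair list had a median of -0.17 (15 above, 26 below) beside -0.08, with 0 agreeing of 16 genes with several probe sets. The kinases and sensors of DNA breaks had 0.00 beside 0.04. The MAP kinase phosphatases of the Dusp family had -0.41 (3 above, 9 below) beside -0.21, and 0.06 over the unirradiated Wip1+/+ array. Of their 5 genes with several probe sets 0 agreed.

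Most stress and metabolic lists lay near the median of all genes, while the integrated stress and unfolded protein response lay higher. Of the 15 genes of that list with several probe sets 0 agreed, beside 1.91% higher and 1.55% lower of all such genes, and 3 were opposed. Against the mean of both Wip1+/+ arrays, its median on the irradiated array labelled Wip1-/- was 0.07. The integrated stress and unfolded protein response had 0.19 (18 above, 8 below) beside 0.07 in Wip1+/+ cells, heat shock proteins 0.06 beside -0.04, cholesterol synthesis 0.08 beside 0.06, hypoxia and glycolysis -0.07 beside 0.02, and the proteasome 0.02 beside 0.03. Interferon-stimulated genes had 0.11 beside -0.04, but lay low on both arrays labelled Wip1-/-, with a median of -0.88 on the unirradiated and -0.86 on the irradiated one against the mean of both Wip1+/+ arrays, and the ratio over the unirradiated Wip1+/+ array was -0.98. Nrf2 targets had 0.11 beside 0.04, and among them Cat, the hydrogen peroxide scavenger catalase, agreed higher. Cat read 1144 and 970 on the unirradiated array labelled Wip1-/- and 2248 and 1872 on the irradiated one, beside 2184 and 2130, then 2603 and 1980, so that 3 arrays lay together and the unirradiated array labelled Wip1-/- lay below them. Its ratio was 0.96 ± 0.02, and -0.07 over the unirradiated Wip1+/+ array.

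The mitochondrial respiratory chain had a median of 0.23 (27 above, 17 below), with 0.00 in Wip1+/+ cells and 0.03 over the unirradiated Wip1+/+ array. Cox7a2 of complex IV (0.72 ± 0.04) and Sdhc of complex II (0.86 ± 0.09) agreed higher, 2 of the 29 genes with several probe sets, beside 1.91% of all such genes, and another 2 of the 29 were opposed. Cox7a2 read 13791 and 6924, then 23131 and 11133, beside values from 20804 to 21945 and from 9299 to 9988 on the Wip1+/+ arrays. Ribosomal proteins had -0.11 beside -0.08, a direction that quantile normalization turned (0.02), with 0 agreeing genes of 18 with several probe sets.

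Genes of the fibroblast matrix and of contractility were mixed. Collagens had a median of -0.20 over 23 genes (9 above, 14 below), with 0.11 in Wip1+/+ cells and 0.13 over the unirradiated Wip1+/+ array. Of the 12 collagens with several probe sets 0 agreed, beside 1.91% higher and 1.55% lower of all such genes. Matrix proteins and their enzymes had 0.08 beside -0.04. Among contractile genes, Itga8, an integrin subunit of mesenchymal cells, agreed higher (202 and 550, then 342 and 1021), but stayed below the 544 and 1569 of the unirradiated Wip1+/+ array. Des, the muscle intermediate filament desmin, agreed lower (1138 and 108, then 695 and 51.1), beside 462 and 105, then 501 and 88.8.

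Markers of other cell types were read beside these lists. The summed signal of 18 macrophage markers was 3340 and 3105 on the arrays labelled Wip1-/- and 11343 and 11411 on the Wip1+/+ arrays, so the sum, in which Lyz2 was the largest part, differed with the genotype label and little with irradiation; 3 and 2 of these markers were at the floor on the arrays labelled Wip1-/-. By the brightest probe set, C1qa (142, then 63.4) and C1qb (239, then 85.0) were 2-fold lower in cells labelled Wip1-/-. These were 2 of 17 measured, beside 4.62% of all genes, and 0 were 2-fold higher, beside 5.70%. The other probe sets of C1qb had log2 ratios of -0.01 and -0.92. Epithelial markers summed to 7141 and 6000 against 4359 and 4763, with 3 and 6 of 17 at the floor. Fibroblast markers summed to 319116 and 245922 against 238523 and 225039, the highest on the unirradiated array labelled Wip1-/-. The brightest markers, such as Vim and Fn1, carry this sum, and the members were mixed. S100a4 (14094), Col3a1 (14992), Ddr2 (1562) and Lum (96.0), among others, were lowest of the 4 arrays on that array. In cells labelled Wip1-/- 7 of the 16 had a ratio above 1 and 9 below. The part of these cell types in the responses was not tested.

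**Figure D5:**
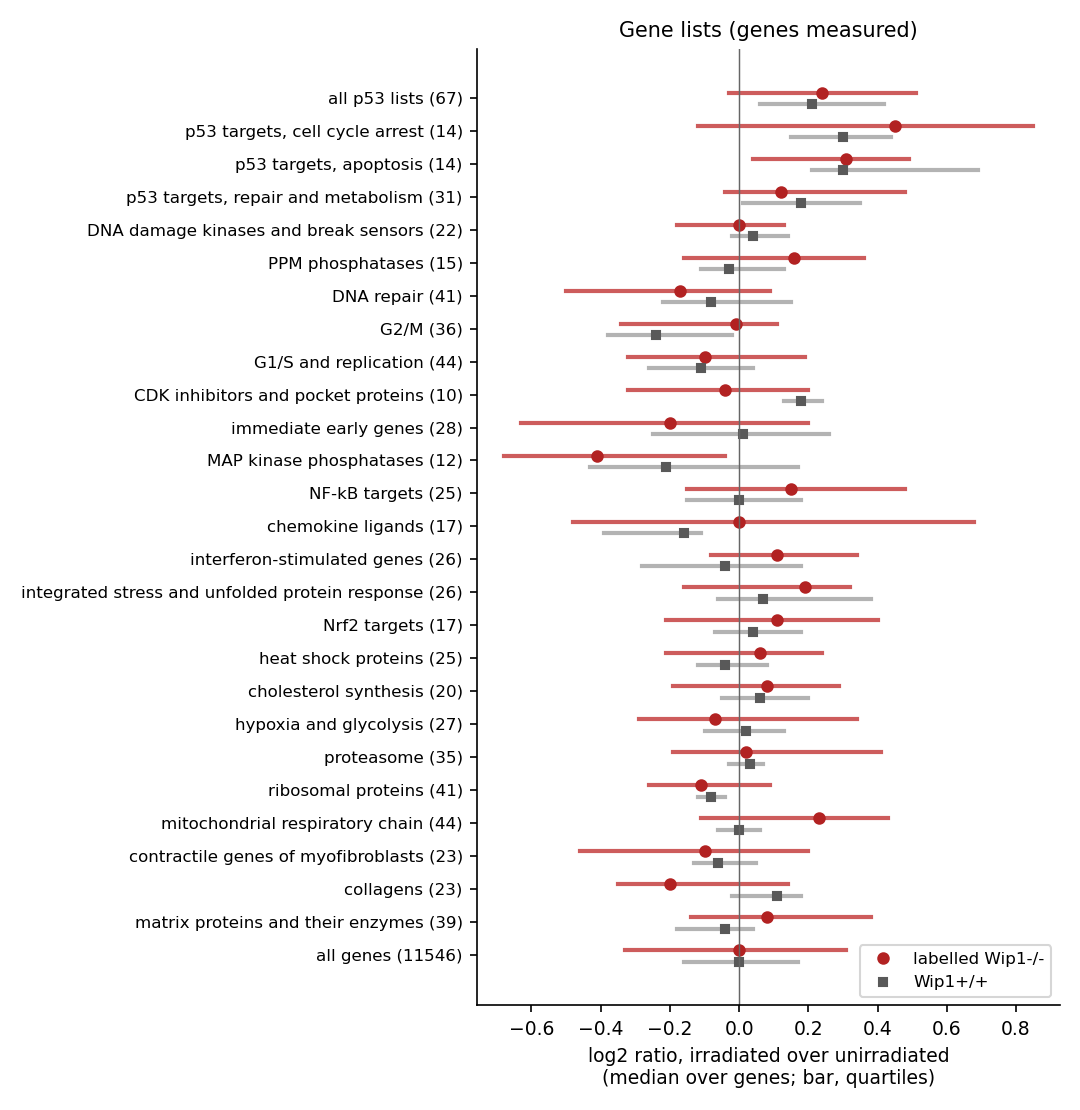
Median log2 ratio of irradiated over unirradiated cells for each gene list with at least 10 measured genes, with bars for the quartiles over genes, in cells labelled Wip1-/- (red circles) and Wip1+/+ cells (grey squares); numbers in parentheses are genes measured. The p53 lists lie right of 0 in both genotypes (0.24 and 0.21 over all 67), and the MAP kinase phosphatases lie farthest left (-0.41) in cells labelled Wip1-/-.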

How the data were processed

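The authors hybridized RNA of mouse embryonic fibroblasts to 4 Affymetrix arrays, 1 per group, and deposited 1 signal intensity per probe set and array on a linear scale. Per the submitters' processing notes the software was GCOS, with no version; its background and scaling steps were not given in the sources used here. The mean after trimming 2% at each end was 500 on each array, so the deposited intensity values were used unscaled. Controls aside, the platform annotation gave 1 symbol to 34945 of 45037 probe sets (932 had several and 9160 were not listed); RefSeq changed 0 symbols. Signals were floored at 46.5 (40th percentile), log2 was taken, and probe sets with a mean under 67.95 were left out. The log2 ratio of a gene is the mean over its passing probe sets, and an agreeing gene has at least 2, all at least 1.5-fold apart in one direction. With 1 array per group the number of arrays limits the precision, and no test was made.

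Members and the 35 gene lists, compiled from textbook knowledge, were chosen with earlier results of these data known. Named genes were the 15 highest and 15 lowest agreeing genes by mean ratio, list members that agreed or were 2-fold apart by the brightest probe set (otherwise the 2 widest), all probe sets of Ppm1d, Cdkn1a and Mdm2, the 10 most positive and 10 most negative differences between genotypes, and genes that agreed in opposite directions. Not all of them are printed; Sox9, Phf12, Id2, Grsf1, genes that kept their difference without the unirradiated array labelled Wip1-/-, and other p53 list members were named after their values were seen. Python 3.11.15 with numpy 2.4.6 and pandas 2.3.3, and R 4.3.3 with limma 3.58.1 for normalization, were used. Alternatives were quantile normalization, cyclic loess, scaling to the median of bright probe sets, a 25th percentile floor or none, no filter, filters at the 67th percentile or a mean of 500, every probe set 2-fold apart, leaving out probe sets ending in _x_at or _s_at, the median over probe sets, and leaving out the unirradiated array labelled Wip1-/- (with the mean of both Wip1+/+ arrays in its place or, added after seeing the data, the unirradiated Wip1+/+ array).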

Additional observations from a re-analysis of the deposited data

Results flagged for a closer look

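Acaa1a had a log2 ratio of 0.67 in cells labelled Wip1-/- and of -0.61 in Wip1+/+ cells, with both probe sets at least 1.5-fold apart in opposite directions in the 2 genotypes. With 1 array per group the difference was not tested. It was the only gene of 5278 with at least 2 passing probe sets that agreed in opposite directions.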

How the results depend on the processing

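Each group was 1 array, and the probe sets of a gene differ with an SD of 0.62, so single genes are uncertain and no spread between cultures is known. The agreeing counts of 101 higher and 82 lower stayed within 1.5 times under quantile normalization, cyclic loess, either floor, no filter, and without probe sets ending in _x_at or _s_at. Scaling to the median of bright probe sets gave 128 agreeing lower. Without a filter, 953 genes were 2-fold lower by the brightest probe set. A filter at the 67th percentile left 49 agreeing higher and 29 lower, and 337 and 100 by the brightest probe set; a mean of 500 left 37 and 17, and 221 and 54. These filters leave fewer genes. With every probe set 2-fold apart, 16 agreed higher and 10 lower. Leaving out the unirradiated array labelled Wip1-/- gave, against the mean of both Wip1+/+ arrays, 49 agreeing higher, and 192 higher and 298 lower by the brightest probe set; over the unirradiated Wip1+/+ array it gave 66 agreeing higher and 278 higher by the brightest probe set. The median of the p53 lists was 0.15 to 0.30 under the alternatives that keep that array. Signs turned for ribosomal proteins under quantile normalization (0.02) and for Nrf2 targets without a filter (-0.02) and without _x_at and _s_at probe sets (-0.08). Without that array, values over the mean of both Wip1+/+ arrays, then over the unirradiated one, turned for PPM phosphatases (-0.06, -0.06), MAP kinase phosphatases (0.09, 0.06), interferon-stimulated genes (-0.86, -0.98), Nrf2 targets (-0.11, -0.02), collagens (0.09, 0.13), fibroblast (0.13, 0.11), endothelial (0.16, 0.13), epithelial (0.57, 0.55), neural (-0.32, -0.25) and adipocyte markers (-0.15, -0.08), Acaa1a (-0.18, -0.49), Cat (-0.11, -0.07), Dhx38 (-0.21, -0.37), Itga8 (-0.72, -0.65), Rprm (-0.43, -0.24), Dram1 (-0.16, -0.13) and Plk2 (0.03, 0.02). The mean alone turned G1/S genes (0.01), Rasal2 (0.15), Slbp (0.08) and Wwp1 (-0.05), and the unirradiated array alone turned immediate early genes (0.03), Cyp4f16 (-0.17), Hif3a (-0.17) and Pigv (-0.23). Lists with a reported median under 0.1 in size are not given here. The cause was not tested. No paired analysis was possible because each group holds 1 array.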

Other observations

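Further agreeing genes are named here after their values were seen, with no list behind the choice. Pom121, a nuclear pore protein, read 375 and 1363 on the unirradiated array labelled Wip1-/- and 637 and 2526 on the irradiated one, where the Wip1+/+ arrays read 443 and 1510, then 584 and 1676, so that the irradiated array labelled Wip1-/- was the highest of the 4. Nup153 went from 140 and 1113 to 304 and 1842, and Nup43 from 198 and 298 to 332 and 545; for both, the unirradiated array labelled Wip1-/- was the lowest. Mdh2, the mitochondrial malate dehydrogenase, was among the brightest of the genes that agreed higher, from 8856 and 11151 to 13643 and 17359, beside 12098 to 12828 and 15240 to 16718 in Wip1+/+ cells. Ddias, a gene that protects damaged cells from death, read 418 and 387, then 862 and 596, and was higher in Wip1+/+ cells too (776 and 446, then 1137 and 718). Its Wip1+/+ log2 ratios were 0.55 and 0.69, so that 1 of its probe sets missed the 1.5-fold limit there.

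Among bright genes that agreed lower, F2r, the thrombin receptor, read 37661 and 24784 on the unirradiated array labelled Wip1-/- and 19357 and 15400 on the irradiated one, both above the Wip1+/+ arrays, which read 16246 to 17026 and 11296 to 11467. Ankrd1, a target of mechanical signalling, went from 12513 and 10804 to 8186 and 6526, and Ccnd3, cyclin D3, from 5738 and 164 to 3178 and 106. Tns1, a focal adhesion protein, was lower with all 3 probe sets, from 2182, 4164 and 1570 to 1379, 2030 and 1039. Foxc1, a mesenchymal transcription factor, went from 926 and 2605 to 481 and 1363, where the Wip1+/+ arrays read 819 and 1837, then 724 and 1406.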
